A study of Mus musculus with 4 samples.

Results

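The 9 genes described here, Pax2, Pax8, Lhx1, Sall1, Eya1, Six2, Ret, Gfra1 and Emx2, are regulators of nephron and collecting duct development, and their RNA was measured in the adult mouse kidney. They were chosen by gene symbol, and each symbol had 1 row among the 54232 genes of the deposited table. RNA-seq libraries were made from kidneys collected at 60 days of age. The 2 WT libraries came from wild-type mice, and the 2 HET libraries from mice heterozygous for Tshz3 with 1 LacZ allele (Tshz3+/LacZ). Each library was a separate preparation of RNA pooled in equal proportion, from 3 kidneys in each group as labelled. Whether a kidney entered more than a single pool is not stated, so the p-values reflect variation among these pools, which may be technical. No strain, sex or description of how LacZ was inserted is given in the labels.

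In the embryo, the kidney forms from the ureteric bud, which branches into the collecting duct system, and from the metanephric mesenchyme, whose progenitors turn into the epithelium of the nephron. The mesenchyme secretes GDNF, and the bud receives it through the receptor tyrosine kinase RET and the co-receptor GFRA1. SIX2, EYA1 and SALL1 act in the nephron progenitors, PAX2, PAX8 and LHX1 in the early renal epithelium and its duct, and EMX2 in the bud. The question was which of these regulators are still transcribed once nephron formation has ended, and whether their levels differ between the genotypes.

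Reads recovered from the deposited values numbered between 62631750 and 70792042 per library. Levels are given as scaled TPM (transcripts per 1000000, corrected for gene length, with the scaling between libraries described under processing), always in the order WT replicate 1, WT replicate 2, HET replicate 1 and HET replicate 2. The tissue label was borne out by segment markers in all 4 libraries. Slc34a1 of the proximal tubule was at 2003 to 2692 scaled TPM, Umod of the thick ascending limb at 1858 to 2730 and Aqp2 of the collecting duct at 258 to 452. Tshz3 itself was at 0.653, 0.723, 0.833 and 0.760 scaled TPM, so RNA of the targeted gene was no lower under the HET label, and every direction given here follows the labels. The deposited value sums over all Tshz3 exons, so RNA from a mutant allele that keeps some exons would be counted too. Sex-linked RNA also differed between pools. Xist was at 18.1, 39.7, 60.5 and 57.7 scaled TPM and the Y-linked gene Ddx3y at 21.1, 16.2, 4.02 and 17.0, and the part of sex in the results below was not tested.

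Adult kidney held 6 of the 9 regulators at more than 1 scaled TPM in every library, and the other 3 at less than 0.5. Over the 4 libraries, Emx2 had the highest mean, 32.2 ± 3.84 scaled TPM (SD, n = 4), followed by Sall1 at 28.8 ± 5.18, Pax8 at 25.5 ± 2.09, Pax2 at 15.4 ± 3.74, Lhx1 at 8.34 ± 0.648 and Gfra1 at 4.98 ± 2.27. Ret was at 0.279 ± 0.0604, Eya1 at 0.0700 ± 0.0296 and Six2 at 0.0313 ± 0.0340. The step from Gfra1 to Ret was the widest in this order, with a ratio of means of 17.9. Among all annotated protein-coding genes, Emx2 stood at the 86.2 percentile of mean level, Sall1 at 84.6, Pax8 at 82.8, Pax2 at 74.6, Lhx1 at 64.0 and Gfra1 at 56.0. Ret stood at the 33.0 percentile, Eya1 at 26.8 and Six2 at 23.5.

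Neighbours in this order were not all distinct. The ranges over 4 libraries overlapped between Emx2 and Sall1, between Sall1 and Pax8, between Lhx1 and Gfra1, and between Eya1 and Six2. They did not overlap between Pax8 and Pax2, where the lowest Pax8 value was 22.9 and the highest Pax2 value 20.6 scaled TPM, nor between Pax2 and Lhx1, Gfra1 and Ret, or Ret and Eya1. Within each of the 4 libraries Lhx1 was above Gfra1, although in HET replicate 2 they were at 8.29 and 8.26 scaled TPM. Emx2 was above Sall1 in only 2 of 4 libraries.

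**Figure D1:**
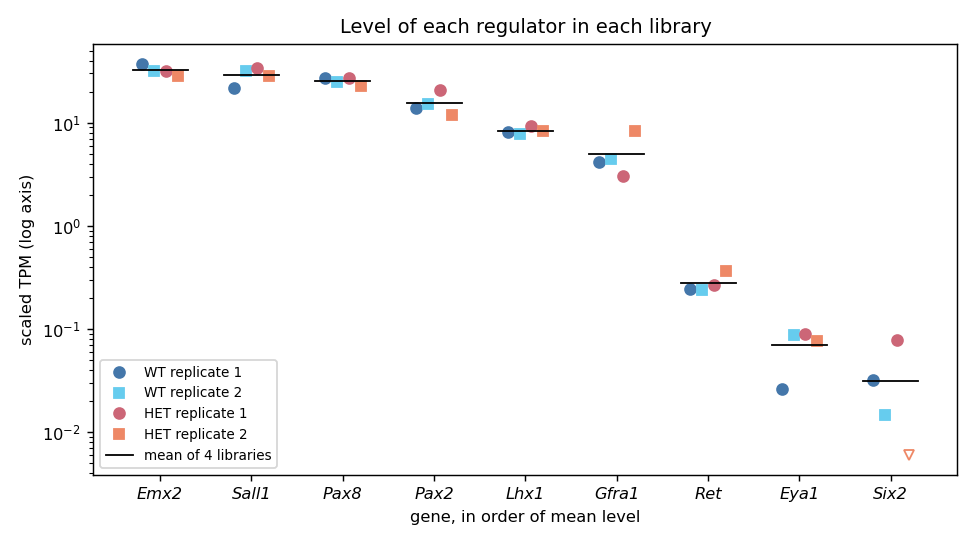
Scaled TPM on a log axis for each of the 9 regulators, with a point per library, genes ordered by mean level and a bar at the mean of the 4 libraries. The open triangle marks the library with 0 reads of Six2 and is placed below the axis range of the other points. Emx2, Sall1 and Pax8 overlap near the top, Gfra1 spreads from 3.01 to 8.26, and Ret, Eya1 and Six2 lie below 0.5.

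The promoter windows of Six2, Pax8 and Emx2 are shown because their CG pairs differ. They were many for the high regulator Emx2 and for Six2, the only low regulator with a window, but not for Pax8. RefSeq windows on GRCm38.p6, running from 250 bases before to 50 after a transcription start, were at hand for 7 of the 9 genes, Eya1 and Ret being the others. In the windows below, capitals mark each CG pair. Six2, at the floor of detection, has 37 CG pairs in its window (chr17:85688205-85688504, minus strand), at the 94.4 percentile of 32851 promoter windows. Pax8, at 25.5 scaled TPM, has 7 (chr2:24475550-24475849, minus strand), equal to the median of all windows. Emx2, the highest of the 9, has 26 (chr19:59458440-59458739, plus strand).
Six2: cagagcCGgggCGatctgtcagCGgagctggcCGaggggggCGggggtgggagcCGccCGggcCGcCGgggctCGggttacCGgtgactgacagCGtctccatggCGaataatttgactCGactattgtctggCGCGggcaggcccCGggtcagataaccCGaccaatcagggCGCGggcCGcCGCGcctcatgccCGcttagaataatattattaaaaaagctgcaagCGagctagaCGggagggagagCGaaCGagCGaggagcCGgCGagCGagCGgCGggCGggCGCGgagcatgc
Pax8: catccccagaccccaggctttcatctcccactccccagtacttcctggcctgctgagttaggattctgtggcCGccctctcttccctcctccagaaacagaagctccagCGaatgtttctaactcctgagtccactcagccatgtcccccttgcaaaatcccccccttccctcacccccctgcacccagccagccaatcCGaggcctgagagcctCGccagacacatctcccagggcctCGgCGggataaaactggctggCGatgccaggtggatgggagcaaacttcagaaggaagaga
Emx2: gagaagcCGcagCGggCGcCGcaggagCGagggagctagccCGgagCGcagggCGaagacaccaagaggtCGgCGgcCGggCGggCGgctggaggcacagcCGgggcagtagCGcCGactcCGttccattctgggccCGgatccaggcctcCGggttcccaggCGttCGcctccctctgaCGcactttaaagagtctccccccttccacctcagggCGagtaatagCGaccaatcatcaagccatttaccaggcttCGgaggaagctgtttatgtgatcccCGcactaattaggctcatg
Of the other windows, that of Lhx1 has 31 CG pairs and that of Gfra1 12, while Pax2 and Sall1 each have 3 windows, with 7, 23 and 30 pairs and with 18, 27 and 39. The letters TATAAA, searched on both strands, were in no window of the 7 genes and in 13.6% of all windows. No match says only that these letters are not in these windows.

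Among the nephron progenitor regulators, Sall1 was abundant while Six2 and Eya1 were near the floor of detection. Six2 (ENSMUSG00000024134, chromosome 17, 85684277 to 85688274, mm10, minus strand) encodes the homeodomain factor that keeps nephron progenitors undifferentiated. It had 2, 1, 5 and 0 reads over exons of 2119 bases. A floor of 3 reads would be 0.0485, 0.0440, 0.0470 and 0.0405 scaled TPM in these libraries, and only HET replicate 1, at 0.0783, was above it. Six2 was therefore not detected in 3 of the 4 libraries at this depth, had too few reads to be tested, and no fold change is given for it.

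Eya1 (ENSMUSG00000025932, chromosome 1, 14168954 to 14310235, mm10, minus strand) encodes a phosphatase and transcriptional co-activator that works with SIX2. It had 6, 22, 21 and 21 reads, corresponding to 0.0263, 0.0876, 0.0893 and 0.0769 scaled TPM. WT replicate 1 was the low library, with an exact Poisson interval of 2.20 to 13.1 reads (95%, counting error only). That of WT replicate 2 was 13.8 to 33.3 reads. A read was worth 0.00439 scaled TPM in WT replicate 1 and 0.00398 in WT replicate 2. In scaled TPM the intervals of these libraries therefore overlap, although they do not in reads. Both HET libraries fell between or just above the WT values, so that the genotypes overlapped. Eya1 was detected in every library, at a level where single reads matter.

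Sall1 (ENSMUSG00000031665, chromosome 8, 89027235 to 89044162, mm10, minus strand) encodes a zinc-finger transcription factor needed for ureteric bud invasion and for the progenitor pool. It was at 21.7, 31.5, 33.5 and 28.3 scaled TPM, from 3334 to 5340 reads per library. WT replicate 1 was again the low library, and the other WT library lay between both HET libraries. Its coefficient of variation over the 4 libraries was 17.996%, above that of 75.8% of 13006 tested protein-coding genes of at least 1 scaled TPM, whose median was 12.0%.

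The epithelial regulators Pax2, Pax8 and Lhx1 were all present in every library, and Pax2 varied the most. Pax8 (ENSMUSG00000026976, chromosome 2, 24420560 to 24475599, mm10, minus strand) encodes a paired-box factor of the nephric duct and early nephron that is also a marker of adult renal epithelium. It was at 27.3, 24.7, 27.1 and 22.9 scaled TPM, with 4819 to 4956 reads. The genotypes overlapped, and the coefficient of variation of 8.18% was below the median of tested genes. An annotated transcript on the opposite strand, Gm13415, shares 367 of its 6061 exon bases, and since the strand setting of the counting is not given, reads there cannot be told apart.

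Pax2 (ENSMUSG00000004231, chromosome 19, 44756045 to 44837871, mm10, plus strand) encodes the paired-box factor required for the nephric duct and for the conversion of mesenchyme to epithelium. It was at 13.8, 15.3, 20.6 and 11.9 scaled TPM, from 2182, 2666, 3360 and 2253 reads. The highest and the lowest library were both labelled HET, with the WT libraries between them. The difference between the HET libraries was beyond counting error, with exact Poisson intervals of 3247 to 3476 and 2161 to 2348 reads. Relative to Pax2, Pax8 was 1.97, 1.61, 1.32 and 1.92 times as high in scaled TPM, so their ratio was lowest in HET replicate 1.

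Lhx1 (ENSMUSG00000018698, chromosome 11, 84518284 to 84525535, mm10, minus strand) encodes a LIM homeodomain factor of the nephric duct and of the first epithelial vesicles. It was at 8.11, 7.73, 9.25 and 8.29 scaled TPM, from 963 to 1181 reads. Both libraries labelled HET exceeded both WT libraries, HET replicate 2 only narrowly. Its coefficient of variation of 7.76% was the lowest of the 9 regulators.

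Among the ureteric bud regulators, Emx2 was the most abundant of all 9 genes and Ret was scarce. Emx2 (ENSMUSG00000043969, chromosome 19, 59458372 to 59465357, mm10, plus strand) encodes a homeodomain factor required for the growth of the bud after it enters the mesenchyme. It was at 37.4, 31.6, 31.6 and 28.1 scaled TPM, from 2858 to 3275 reads. WT replicate 1 was the highest library and HET replicate 2 the lowest, with the other pair at the same level. The antisense transcript Emx2os overlaps 264 of the 3002 exon bases of Emx2, and Emx2 was 12.3, 13.3, 12.3 and 14.6 times as high as Emx2os in scaled TPM.

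Ret (ENSMUSG00000030110, chromosome 6, 118151745 to 118197718, mm10, minus strand) was at 0.243, 0.239, 0.265 and 0.368 scaled TPM, from 48, 52, 54 and 87 reads. Both libraries labelled HET were above the WT pair, HET replicate 1 only narrowly. In reads without scaling, the exact Poisson interval of HET replicate 2, 69.7 to 107, lay above the higher upper bound of the WT libraries, 68.2. It overlapped that of HET replicate 1, 40.6 to 70.5. A read was worth 0.00507 and 0.00459 scaled TPM in WT replicates 1 and 2 and 0.00423 in HET replicate 2. In scaled TPM the interval of HET replicate 2 therefore overlaps those of both WT libraries. Overlap of separate intervals does not decide whether a difference is beyond counting error, and that was not tested.

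Gfra1 (ENSMUSG00000025089, chromosome 19, 58235604 to 58455909, mm10, minus strand) encodes the membrane-anchored co-receptor that binds GDNF and presents it to RET. It was at 4.19, 4.44, 3.01 and 8.26 scaled TPM, from 670, 782, 497 and 1582 reads. The highest and the lowest library were both labelled HET, 1505 to 1662 reads against 454 to 543 as exact Poisson intervals. Its coefficient of variation of 45.7% was above that of 97.6% of the 13006 tested protein-coding genes of at least 1 scaled TPM. In scaled TPM, Gfra1 was 17.2, 18.6, 11.4 and 22.5 times as high as Ret, so the co-receptor exceeded the receptor in each library. The antisense transcript Gm16277, which shares 416 of the 5476 exon bases of Gfra1, had 90, 105, 50 and 204 reads, also lowest in HET replicate 1 and highest in HET replicate 2. Per length its level was close to that of Gfra1, which was 0.900, 0.900, 1.20 and 0.937 times as high, and with no strand setting given, reads of the shared bases cannot be told apart.

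In the comparison of genotypes, none of the regulators passed the test. Of the 8 regulators with enough reads, 0 were called by limma at a Benjamini-Hochberg adjusted p below 0.1, where 0.00895% of the 22356 tested genes were called (2 genes). By direction, 0 of the 8 were called higher, against 0.00447% of tested genes, and 0 lower, against 0.00447%. At an unadjusted p under 0.05 there were 0 of the 8, against 7.26% of all tested genes, and limma-voom on the recovered reads also called 0, with 0 under 0.05 unadjusted. The count over all genes was 0 without WT replicate 1, 8 without WT replicate 2, 61 without HET replicate 1 and 97 without HET replicate 2, and in each of these fits 0 regulators were called. Both libraries labelled HET exceeded both WT libraries for 2 of the 8, Lhx1 and Ret, where this held for 21.8% of all tested genes, and below for 0, where it held for 23.1%. The median log2 fold change of the 8 genes was 0.12, beside 0.0067 for all tested genes.

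The intervals of the fold changes show what these 4 libraries could resolve. On the log2(scaled TPM + 0.5) scale, which understates the change of low genes, Pax8 differed between HET and WT by -0.057 ± 0.14 (SE; limma adjusted p = 0.889) with a 95% confidence interval from -0.40 to 0.29. The interval of Lhx1 ran from -0.19 to 0.47 around 0.14 (limma adjusted p = 0.717), that of Emx2 from -0.56 to 0.16 around -0.20 (limma adjusted p = 0.649) and that of Sall1 from -0.27 to 0.73 around 0.23 (limma adjusted p = 0.691). For these 4 genes a doubling or halving, 1 or -1 on this scale, lies outside the interval. Without scaling of the TPM the median log2 fold change of all genes was 0.20, and Pax8 (0.19) and Emx2 (0.050) were then above 0 but below that median.

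For Pax2 and Gfra1 the HET libraries lay on either side of WT. Pax2 was at 14.6 ± 1.05 scaled TPM in WT and 16.3 ± 6.16 in the libraries labelled HET (SD, n = 2), a log2 fold change of 0.10 with an interval from -0.55 to 0.76 (limma adjusted p = 0.889), which also leaves 1 and -1 outside. Without HET replicate 1 it was -0.28, and without HET replicate 2 it was 0.49. Gfra1 was at 4.32 ± 0.172 in WT and 5.63 ± 3.71 in the libraries labelled HET (SD, n = 2), a log2 fold change of 0.20 with an interval from -1.004 to 1.41 (limma adjusted p = 0.875). Without HET replicate 2 it was -0.45, and without HET replicate 1 it was 0.86. The interval of Ret ran from -0.20 to 0.47 around 0.14 (limma adjusted p = 0.724) and that of Eya1 from -0.21 to 0.35 around 0.068 (limma adjusted p = 0.832). At their levels the added 0.5 outweighs the signal, so these narrow intervals do not bound their change in RNA. Without WT replicate 1 the log2 fold changes of Sall1 and Eya1 were -0.031 and -0.011.

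**Figure D2:**
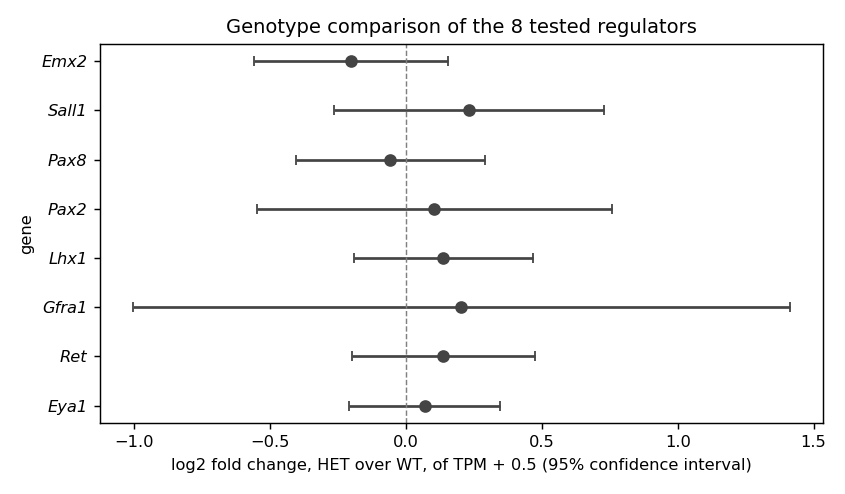
The log2 fold change of HET over WT for the 8 tested regulators, on the log2(scaled TPM + 0.5) scale, with 95% confidence intervals from limma and 2 libraries per genotype. All 8 intervals include 0, and that of Gfra1 is the widest, from -1.004 to 1.41.

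Pax2 was highest in HET replicate 1, as were markers of several nephron segments. Of 139 list genes of at least 1 scaled TPM, those nearest to Pax2 in pattern were Cldn16, a claudin of the thick ascending limb, Aqp2, the water channel of principal cells, and Kcnj1, the potassium channel ROMK. Likeness was the root mean square difference of log2 levels, each centred on its mean over 4 libraries, and was 0.018 for Cldn16, 0.046 for Aqp2 and 0.051 for Kcnj1. Aqp2 was at 324, 351, 452 and 258 scaled TPM, which was 23.4, 22.9, 21.9 and 21.7 times the level of Pax2. Of the 17403 tested genes of at least 1 scaled TPM, 27 were as near to Pax2 as the third of these. This is a description over 4 libraries, which share the depth and makeup of each pool.

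Most other markers of these segments were also highest in HET replicate 1, Aqp3 and Fxyd4 of the principal cell list being the exceptions. The summed level of 6 principal cell markers was 506, 544, 655 and 415 scaled TPM, that of 6 markers of the distal convoluted and connecting tubule 244, 268, 469.5 and 257, and that of 4 thick ascending limb markers 2288, 2597, 3312 and 2457. The summed level of 4 markers of tubular injury was 21.9, 28.5, 71.5 and 33.3 scaled TPM. Of these, Vcam1 (5.76 and 5.95 scaled TPM in HET replicates 1 and 2) and Krt20 (0.965 and 1.04) were instead highest in HET replicate 2. Podocyte markers, with sums of 184, 198, 241 and 189 scaled TPM, were also highest in HET replicate 1. So were intercalated cell markers, with sums of 172, 174, 205 and 155. Aqp6 of the intercalated cell list was instead highest in WT replicate 2. The pattern was thus not particular to the distal segments, but the proximal tubule did not share it. The sums of its 5 markers were 4336, 3583.5, 3315 and 3425 scaled TPM, and no gene of that list was highest in HET replicate 1. None of these markers was at 0 in any library, and their part in the Pax2 values was not tested. In bulk RNA, a different share of cells of a segment and a different amount of RNA per cell cannot be told apart.

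**Figure D3:**
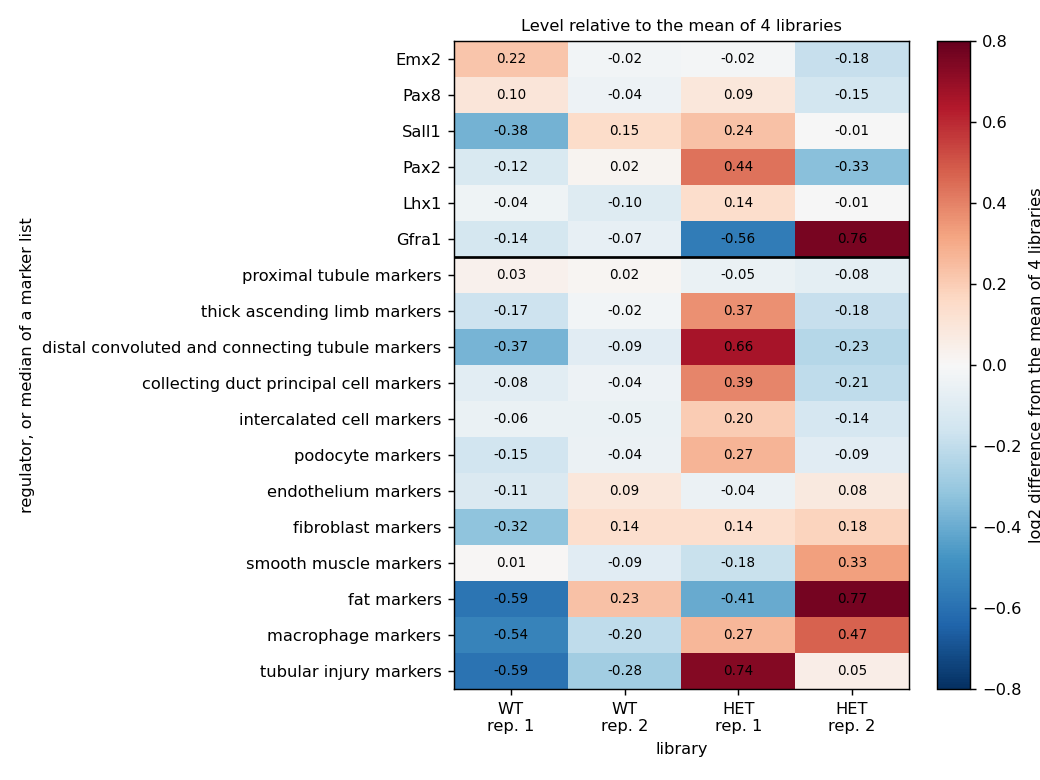
Log2 difference from the mean of the 4 libraries, with 0.5 added to scaled TPM, for the 6 regulators above 1 scaled TPM (upper rows) and for the median of each marker list (lower rows), in columns by library. Pax2 and the thick ascending limb, distal tubule, principal cell, intercalated cell, podocyte and injury markers are highest in HET replicate 1. Gfra1 is lowest there and highest in HET replicate 2. The smooth muscle, fat, fibroblast and macrophage markers are also highest in HET replicate 2. Of these, the smooth muscle markers are lowest in HET replicate 1 and the others in WT replicate 1.

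Gfra1 was low in HET replicate 1 and high in HET replicate 2, the reverse of Pax2. Its nearest list genes were Cnn1 and Myh11, which encode calponin and smooth muscle myosin heavy chain, and the adipocyte gene Cidec, at root mean square differences of 0.11, 0.21 and 0.26. Cnn1 was at 1.97, 2.01, 1.20 and 3.24 scaled TPM, and Gfra1 was 2.13, 2.21, 2.51 and 2.55 times as high. There were 186 of 17403 genes as near to Gfra1 as Cidec. Marker lists whose sums were highest in HET replicate 2 included 4 smooth muscle genes, with sums of 112, 101, 102 and 127 scaled TPM, 4 fat genes, with sums of 67.1, 123, 68.1 and 140.0 (Ucp1 alone was lowest there), and 4 lymphocyte genes, with sums of 0.738, 1.69, 0.807 and 14.03. No gene of these 3 lists was at 0 in any library. Of 6 nerve and glia markers, Th had no read in the other 3 libraries, and the sums were 1.80, 1.91, 1.89 and 2.64. Sums were also highest in HET replicate 2 for fibroblast markers (71.2, 102, 99.3 and 108) and macrophage markers (79.0, 86.7, 128.3 and 128.8). The same held for urothelium markers (26.8, 36.5, 34.7 and 44.1) and cell cycle markers (2.13, 4.07, 5.26 and 6.02). Not every gene of these further lists was highest in that library. The part of any of these lists in the Gfra1 values was not tested.

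**Figure D4:**
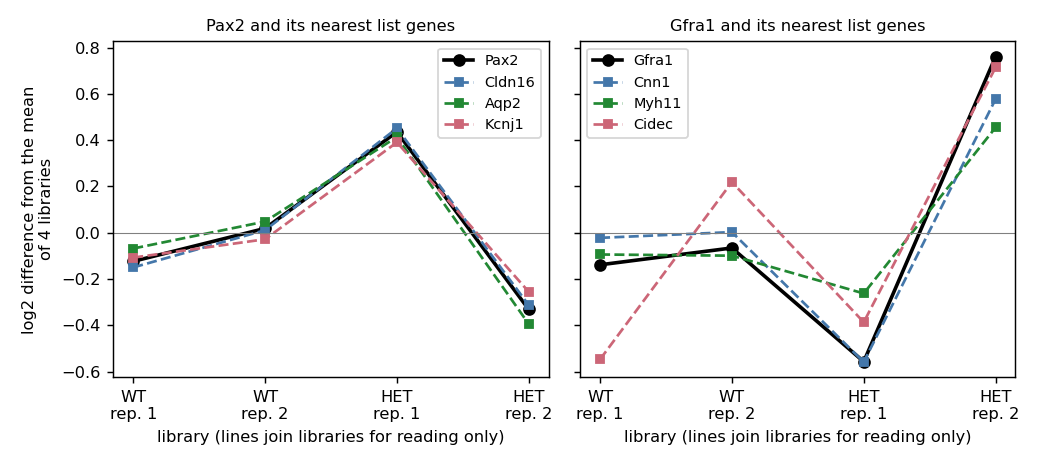
Log2 difference from the mean of the 4 libraries, with 0.5 added to scaled TPM, for Pax2 (left) and Gfra1 (right) with the 3 list genes nearest to each. Cldn16, Aqp2 and Kcnj1 follow Pax2 within 0.051 (root mean square), while Cnn1, Myh11 and Cidec follow Gfra1 within 0.26.

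For the other abundant regulators, more genes lay as near as the named ones. Sall1 was nearest to Gas1, a GDNF-binding membrane protein gene (0.042), Tcf21, a stromal and podocyte transcription factor gene (0.045), and the collecting duct regulator Tfcp2l1 (0.093), and 317 of 17403 genes were as near as the third. For Lhx1 the nearest were Sall2, Elf5 and Slc4a1, for Pax8 Csf1r, Elf3 and Bmp4, and for Emx2 Irx3, Slc34a1 and Hoxb7. The genes as near as the third numbered 844 for Lhx1, 1160 for Pax8 and 2148 for Emx2.

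Members of the same families were expressed unevenly in the adult kidney. Emx1 was at 27.8 scaled TPM on average, close to Emx2, and its range of 22.8 to 32.8 overlapped that of Emx2. Eya3, at 11.0 to 11.5 scaled TPM in the 4 libraries, was the highest EYA gene where Eya1 was below 0.1, and Six5, at 4.82 to 6.55, the highest relative of Six2, itself near 0. Sall2 was at 7.62 to 9.57 scaled TPM, below Sall1 in every library. Of the other PAX genes, Pax5, which encodes a B cell factor, had the highest mean through HET replicate 2 alone, and it was at 0.0697, 0.0632, 0.0188 and 1.36 scaled TPM, high in the library where the 4 lymphocyte markers summed to 14.03 against 0.738 to 1.69. In the other 3 libraries Pax9 was above it, at 0.380, 0.350 and 0.263 scaled TPM. Among the other genes named Lhx, Lhx2 had the highest mean through WT replicate 1, at 1.31, 0.332, 0.242 and 0.488 scaled TPM, and Lhx6 was above it in WT replicate 2 and HET replicate 1. The related LIM homeobox gene Lmx1b averaged 1.51, and the highest other GDNF-family co-receptor gene, Gfra4, 1.09 scaled TPM (Lhx6, Lmx1b and Pax9 were named after their values were seen). Of 29 such relatives, 13 averaged under 0.1 scaled TPM and 4 had no read in any library (Pax3, Pax4, Pax7 and Six6).

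**Figure D5:**
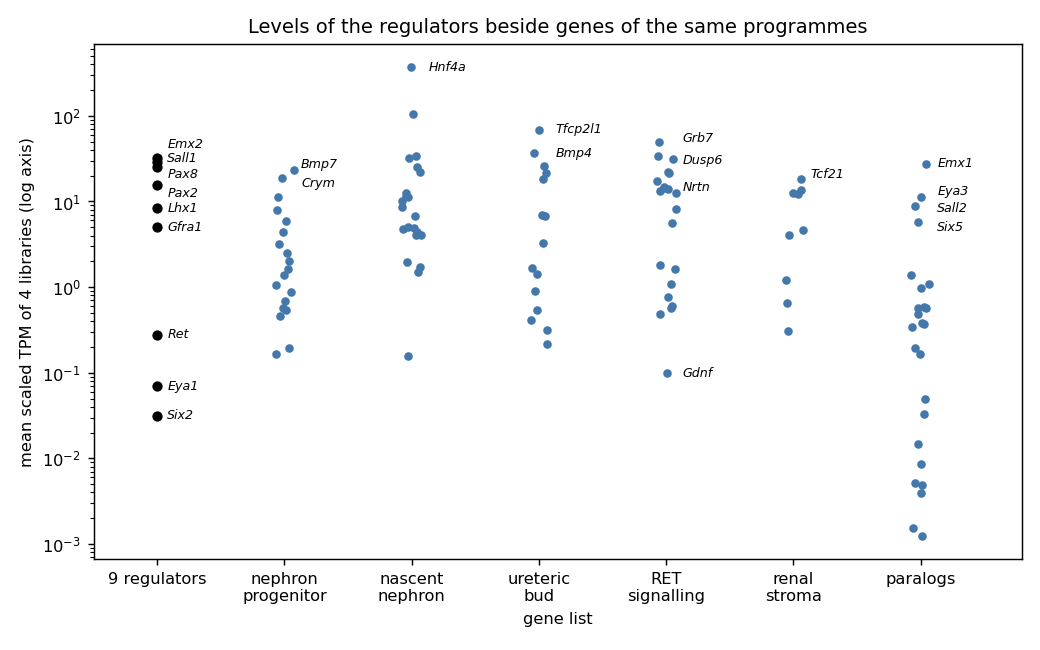
Mean scaled TPM of the 4 libraries on a log axis for the 9 regulators and for genes of 5 developmental programmes and of the same families, with a point per gene and selected genes named. Genes with no read in any library (Fgf8, Pax3, Pax4, Pax7 and Six6) are not drawn. Hnf4a is the highest at 368, and Gdnf lies at 0.0988, near Ret, Eya1 and Six2.

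Around RET, the receptor and its main kidney ligand were scarce, while 16 of 21 genes of the RET signalling list averaged at least 1 scaled TPM. Gdnf, the ligand, had 45 reads in all and averaged 0.0988 scaled TPM, whereas Nrtn, which encodes the related ligand neurturin, was at 18.1, 14.97, 13.1 and 12.7 (these ligands were chosen after their values were seen). The 4 highest genes of the list, named for their level, included the adaptors Grb7 and Grb2, which averaged 49.0 and 31.7 scaled TPM. The others were Dusp6, which encodes a phosphatase of ERK, at 33.9, and Gas1, whose product binds GDNF, at 22.1. Etv5, a transcription factor gene induced by RET in the bud tip, was at 6.53, 7.02, 4.16 and 4.62 scaled TPM, lower in both libraries labelled HET, a difference of -0.57 ± 0.15 on the log2 scale (SE; limma adjusted p = 0.622) that did not pass the test. Ncam1, an adhesion molecule gene that can serve GDNF signalling, had 0.57 ± 0.23 (SE; limma adjusted p = 0.622). Of 21 genes of RET signalling, 0 were called, 7 had a positive and 14 a negative log2 fold change, and the median was -0.030.

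Companions of the nephron progenitor regulators included Bmp7, a growth factor gene of the progenitor niche, at 23.3 scaled TPM on average, and Itga8, an integrin gene needed for Gdnf expression, at 7.90. Crym, which encodes a thyroid hormone binding protein, was at 33.8, 18.9, 12.0 and 10.9 scaled TPM, and its HET minus WT difference on the log2 scale was -1.11 ± 0.28 (SE; limma adjusted p = 0.622). It was the only gene of the 5 programmes in the authors' deposited table of 97 genes, which lists it at -0.87 with an adjusted p of 0.00610 and holds 0 of the 9 regulators. Osr1, an early marker of renal progenitors, averaged 1.05 scaled TPM, with a HET minus WT difference of -0.41 ± 0.23 on the log2 scale (SE; limma adjusted p = 0.622). Of the 19 genes 0 were called, 13 had a positive and 6 a negative log2 fold change, with a median of 0.098. Leaving out WT replicate 1 gave a median of -0.0017, and leaving out HET replicate 1 gave -0.018.

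Regulators of later nephron segments reached higher levels than the 9 genes, though not each of them did. Hnf4a, the proximal tubule nuclear receptor, averaged 368 scaled TPM, Irx3 33.8 and Pou3f3, a distal nephron factor, 32.1. Cdh6, a cadherin gene of the early tubule, was at 2.68, 4.78, 7.81 and 4.42 scaled TPM, and differed by 0.64 ± 0.35 on the log2 scale (SE; limma adjusted p = 0.623). Of 23 genes, Fgf8 had no read, and of the 22 tested 0 were called, 17 had a positive log2 fold change (11422 of all 22356 tested genes did), and the median was 0.20. It was -0.014 without HET replicate 1 and 0.33 without HET replicate 2. The libraries labelled HET exceeded both WT libraries for 7 of these 22, where this held for 21.8% of all tested genes, among them Notch2 at 9.51, 10.6, 12.8 and 12.8 scaled TPM (chosen after its values were seen).

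Companions of the ureteric bud regulators were led by Tfcp2l1, a collecting duct transcription factor gene, at 69.2 scaled TPM on average, Bmp4 at 36.5, Hoxb7, long used to mark the ureteric bud lineage, at 25.8, and Elf3 at 21.3. The largest log2 fold changes among them were 0.34 ± 0.18 for Tfcp2l1 (SE; limma adjusted p = 0.622) and 0.32 ± 0.21 for Wnt7b (SE; limma adjusted p = 0.636). Of 15 genes 0 were called, 7 had a positive and 8 a negative log2 fold change, and the median was -0.029. Leaving out WT replicate 2 turned it to 0.065, and leaving out HET replicate 2 to 0.14. Renal stroma regulators included Tcf21 at 18.2 scaled TPM on average, Hoxd10 at 12.6 and Aldh1a2, which encodes a retinoic acid synthesizing enzyme, at 12.2. Aldh1a2 and Meis1 had the largest log2 fold changes among them, 0.55 ± 0.42 and 0.33 ± 0.21 (SE; limma adjusted p = 0.669 and 0.633). Of 9 stroma genes 0 were called, and their median of 0.20 was -0.060 without WT replicate 1. Over the 86 tested genes of the 5 programmes, 5 had an unadjusted p under 0.05, Cited1, Crym, Notch2, Etv5 and Ncam1 (Cited1 was named after its values were seen), beside 7.26% of all tested genes, and limma-voom called 0, with 6 under 0.05 unadjusted.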

How the data were processed

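The authors deposited TPM per gene over its exons, from alignments to mm10 marked unique, per the file headers. The authors' notes on processing, as the submitters gave them, name mm10, DESeq, DESeq2 and edgeR. The aligner, counter, annotation and strand setting were not given in the sources used here. A further table deposited by the authors, of 97 genes with adjusted p-values up to 0.0997, holds a signal (mean normalized count), log2 fold changes, their errors, a score (test statistic) and p-values.

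Reads were recovered from TPM and exon length, and 100% of the values above 0 were whole reads within 0.001. The reads gave depth, counting intervals (exact Poisson, 95%), scaling and the filter, and were themselves tested only in the limma-voom alternative. TPM were scaled with TMM (trimmed mean of M values) factors of 0.901, 0.989, 1.05 and 1.07 (WT replicates 1 and 2, HET replicates 1 and 2), which with each library's TPM total amounted to division by 0.859, 0.975, 1.06 and 1.13. Genes were kept with 10 or more reads (scaled to the median depth) in 2 libraries and 15 in total, and tested with limma 3.58.1 (R 4.3.3, statmod 1.5.0) on log2(scaled TPM + 0.5), using robust moderation and a trend of variance with level, and Benjamini-Hochberg adjustment over all tested genes. The fit was tested on simulated reads. Alternatives were other pseudocounts, filters, scalings, moderation and limma-voom, a replicate block and leaving out each library.

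The 9 genes and all lists were chosen with earlier results of these data known. From each list the text names the 4 highest genes and the 2 of at least 1 TPM with the largest change, and from each family the highest relative, and for each regulator above 1 TPM the 3 list genes nearest in pattern. Other genes are marked where they were chosen later, and some genes that the rule names are not reported here. An exact permutation test of 2 libraries against 2 (two-sided) cannot go below p = 0.333, so single genes rest on the spread shared across genes. Classes of genes and overlaps were read from GENCODE M21 (54165 of the 54232 identifiers matched). Replicate numbers are not stated to pair the libraries.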

Additional observations from a re-analysis of the deposited data

How the results depend on the processing

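No regulator that could be tested was called in the reported fit or in any of the 13 alternatives (Six2 was tested only with no filter on low genes, and 6 of the 9 with the filter of 1 read per 1000000), and their lowest limma adjusted p in any alternative was 0.259 (without HET replicate 1). The count over all genes, 2, was 0 with no filter on low genes, 5 when 2 libraries had to reach 1 read per 1000000, 1 with no robust moderation, 0 with limma-voom and 0 with the replicate block. Leaving out a library gave between 0 and 97 (without WT replicate 1 and without HET replicate 2). Replicate numbers are only names here: deviations of same-numbered libraries had a correlation of 0.12 across 22356 genes, and with the replicate block 0 regulators were called. Lhx1 and Ret kept a log2 fold change above 0 in every alternative that tested them, from 0.062 to 0.38 and from 0.045 to 0.38. As their genotypes do not overlap in the reported fit, leaving out a library could turn the sign only through the scaling. The scaling was computed anew on the remaining libraries, so the kept sign in those fits says little. Leaving out a library gave log2 fold changes from -0.011 to 0.15 for Eya1, from -0.031 to 0.48 for Sall1, from -0.28 to 0.49 for Pax2, from -0.18 to 0.063 for Pax8 and from -0.45 to 0.86 for Gfra1. The sign turned without WT replicate 1 for Eya1 (-0.011), Sall1 (-0.031) and Pax8 (0.014), without HET replicate 1 for Pax2 (-0.28), without HET replicate 2 for Gfra1 (-0.45) and Pax8 (0.063), and without scaling of the TPM for Pax8 (0.19) and Emx2 (0.050). The cause was not tested, except that without scaling the median of all genes was itself 0.20. The median of ureteric bud and collecting duct regulators was then 0.21 and that of RET signalling 0.14. Six2, with 8 reads over all libraries, is limited by depth, and Eya1, with 70, nearly so. With 3 libraries, the lone library of a genotype is assumed to vary like the others.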
